A study of Rattus norvegicus with 15 samples.

Results

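The comparison concerned dissociated rat dorsal root ganglion (DRG) cells after 3 h of dibutyryl cAMP (dbcAMP), read on the 3 arrays of that time among 15 arrays over 5 times. The arrays were selected by their labels, and every probe of the array was examined. Ganglia L4 and L5 of juvenile rats were dissociated and cultured in Sato medium. One RNA of each array came from cells given 1.5 mM dbcAMP for 3 h and the other from cells in medium alone. Treated RNA carried Cy5 and control RNA carried Cy3 on all 15 arrays, so a dye bias of a probe adds to its ratio at 3 h, and where it is constant it cancels in a difference between times. Dishes were coated with poly-L-lysine or with myelin, and the labels tie neither coating to an array. They also do not say whether separate cultures lay behind the 3 arrays of a time. A p-value reflects how far arrays of the same time differ, taken over all 15 arrays, and that spread may be technical. A DRG culture holds glia and other cells besides neurons. The values are ratios without levels, so the labelled cell type could not be checked against its markers, and fewer cells of a type cannot be told apart from less RNA per cell.

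Cyclic AMP is a second messenger made by adenylyl cyclases, destroyed by phosphodiesterases and read mainly by protein kinase A. The kinase phosphorylates CREB, a transcription factor bound at cAMP response elements in promoters, and immediate early genes and feedback inhibitors of signalling are among its known targets. dbcAMP enters cells and acts in place of the natural messenger. In DRG neurons it is known for letting axons grow on myelin, an effect that depends on new transcription, which makes the early hours of treatment of interest.

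After 3 h, 145 of 5050 probes differed between treated and control RNA (2.87% of probes; limma, adjusted p under 0.05). Of these, 47 were higher (0.931% of probes) and 98 were lower (1.94% of probes) in treated cells. Among probes with 1 gene symbol, 36 rose and 80 fell. Rising genes included the feedback regulators Rgs2, Dusp1 and Sik1, the transcription factors Junb and Klf4, the hyaluronan-binding protein Tnfaip6 and the chemokine Cxcl2. For the microtubule-associated protein Map1b 1 probe rose. Falling probes included 1 of cyclin D1 (Ccnd1), 1 of Vegfa and probes of calcium channel and muscarinic receptor genes, and many of them came from a few probe plates. The log2 ratio over all tested probes had a median of 0.02. The median was 0.81 among the called higher probes and -1.12 among the called lower ones, and 15 higher and 58 lower probes passed 1 in size on the log2 scale, a 2-fold change. Log2 ratios had an SD of 0.372 to 0.400 on each of the 3 arrays, and the pairwise correlation of these arrays over probes was 0.586 to 0.686.

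Those calls were sensitive to single arrays. Without array 1, 2 or 3 of 3 h the count of called probes was 79, 53 or 68, and 49 of the 145 stayed called whichever array was left out. These 49 comprised 11 higher and 38 lower probes. All 12 of the lowest named probes stayed called in this way, and 4 of the 12 highest did. Among the 36 named higher probes the 9 that stayed called were Barhl1, Rps6kb1, Tnfaip6, Map1b, Phlda1, Cxcl2, Rgs2, Dusp1 and Ptp4a1. Of the lower genes described here, those that lost the call without 1 of the arrays were Ppargc1a, Csf1, Pdgfc, Ntf3, Pcdhb12, Actn4, Slit1, Chrm3, Chrm5, Adrb1, Cacna1e, Map2k1, Akap1, Adcy2, Olig1, C4b and S100a9. Over the 76 named probes that lost it, the highest adjusted p without 1 array was 0.054 to 0.423.

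The CREB target and immediate early genes lay mostly above 0, and few passed the test. Of 55 such genes on the array, read by 61 probes, Sik1, Rgs2, Dusp1, Klf4 and Junb rose, which is 9.09% of them, against 0.869% of all 4141 named genes tested. Ccnd1 and Ppargc1a fell. The median log2 ratio of the list was 0.14 against 0.02 over all named genes, with 41 genes above 0 and 14 below. Of all 4141 named genes tested, 2272 were above 0 and 1869 below.

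**Figure D1:**
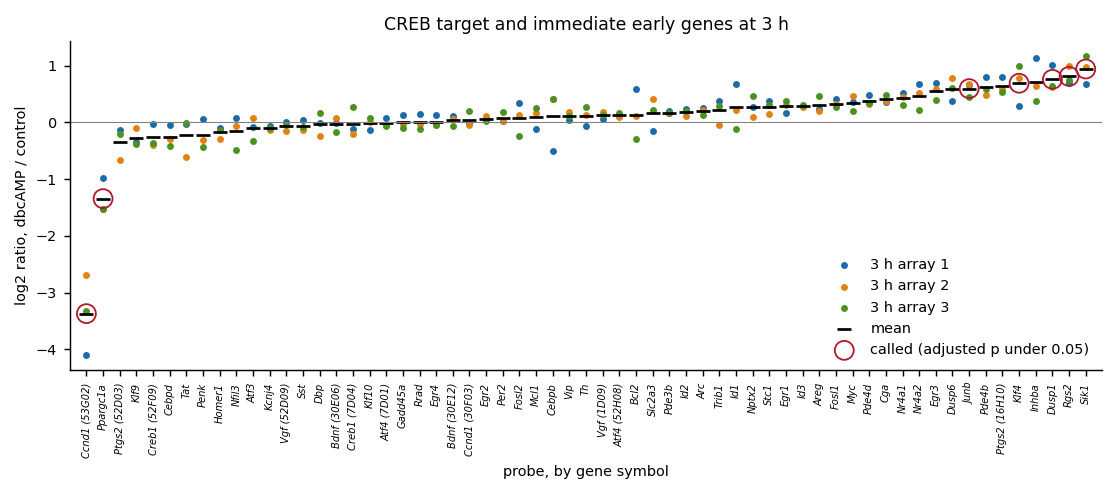
Log2 ratio of dbcAMP over control RNA (vertical axis) for each probe of the CREB target and immediate early genes (horizontal axis, ordered by mean), with the 3 arrays of 3 h as coloured points and the mean as a bar. Circles mark the called probes, 5 higher and 2 lower, and most of the other means lie slightly above 0.

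The promoters of these genes are shown because CREB acts through them. RefSeq (GRCr8) gave 250 bases before the start for 3341 of the array's 4153 named genes, including 33 of the 36 that rose and 59 of the 80 that fell. The full element searched was TGACGTCA, which reads the same on both strands, and the core element was TGACG on either strand, so that a full element also counts as a core element. The full element was found before the start of 2.04% of the array's genes, of 2 of the 33 that rose (Dusp1 and Vamp1) and of 1 of the 59 that fell (Ppargc1a). The core element was found for 801 of the 3341 genes, for 10 of the 33 and for 12 of the 59. A match of letters is a description and not a bound site. In the stretches below, each 5′ to 3′ on the strand of its gene and ending at or before the start, capitals mark the core elements, written CGTCA where they lie on the opposite strand, and a full element is 8 capitals in a row.
Dusp1, chr10:17184679-17184786, plus strand: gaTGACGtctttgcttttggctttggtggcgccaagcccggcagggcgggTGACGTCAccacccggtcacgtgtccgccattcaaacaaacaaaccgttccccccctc
Sik1, chr20:9958780-9958887, minus strand: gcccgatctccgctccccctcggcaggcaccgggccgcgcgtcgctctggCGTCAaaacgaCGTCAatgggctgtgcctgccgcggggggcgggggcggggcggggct
Rgs2, chr13:58352825-58352916, minus strand: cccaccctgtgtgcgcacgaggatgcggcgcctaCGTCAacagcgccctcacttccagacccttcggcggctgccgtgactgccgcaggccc
Junb, chr19:40080921-40081028, plus strand: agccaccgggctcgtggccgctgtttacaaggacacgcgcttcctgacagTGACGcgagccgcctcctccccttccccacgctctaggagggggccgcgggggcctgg
Vamp1, chr4:159698773-159698880, plus strand: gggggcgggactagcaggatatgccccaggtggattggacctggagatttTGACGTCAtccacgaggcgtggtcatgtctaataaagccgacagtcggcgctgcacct
Ppargc1a, chr14:63634077-63634184, plus strand: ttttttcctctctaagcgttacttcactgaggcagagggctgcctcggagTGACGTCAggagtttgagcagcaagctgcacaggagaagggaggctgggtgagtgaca
Dusp1 held a full element 124 bases before its start and a further core element, and Vamp1 held a full element 71 bases before its start. Sik1 held 2 core elements, while Rgs2 and Junb held 1 each. The window of Klf4 held none of these letters. Ppargc1a, a coactivator of mitochondrial genes, held a full element 181 bases before its start and was lower in treated cells.

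Rgs2, which speeds the shutdown of G protein signals, had log2 ratios of 0.69, 1.00 and 0.74 on arrays 1 to 3. Its mean of 0.81 ± 0.17 (SD, n = 3), a 1.75-fold rise, had an adjusted p of 0.000402 in limma. Dusp1, a phosphatase that inactivates MAP kinases, had log2 ratios of 1.02, 0.62 and 0.64. All arrays were well above 0 for both genes, and both stayed called without any 1 array. The mean of Dusp1 was 0.76 ± 0.22 (SD, n = 3), a 1.69-fold rise with an adjusted p of 0.00255. Sik1, a kinase that holds back CREB coactivators, had log2 ratios of 0.68, 0.97 and 1.18 with a mean of 0.94 (limma adjusted p = 0.0324). Junb, an AP-1 subunit, had log2 ratios of 0.66, 0.67 and 0.45 with a mean of 0.60 (limma adjusted p = 0.0161). Klf4, a zinc finger factor, varied more between arrays than the other members of this group. Its log2 ratios were 0.29, 0.78 and 1.00 with a mean of 0.69 (limma adjusted p = 0.0189). Without 1 of the arrays the adjusted p of Sik1, Junb and Klf4 reached 0.305, 0.167 and 0.270, so none of these 3 calls held.

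Several known targets were above 0 on every array without passing the test. Inhba, a subunit of activin, had log2 ratios of 1.14, 0.65 and 0.38 (limma adjusted p of the mean = 0.0653). Dusp6, a phosphatase for ERK kinases, had a mean log2 ratio of 0.59 (limma adjusted p = 0.0578), and Pde4b, a phosphodiesterase that degrades cAMP, had one of 0.63 (limma adjusted p = 0.120). The orphan nuclear receptor Nr4a1 had log2 ratios of 0.52, 0.45 and 0.30 (limma adjusted p of the mean = 0.109). Egr1, an immediate early factor, had log2 ratios of 0.17, 0.31 and 0.38 (limma adjusted p of the mean = 0.497). Both probes of Ptgs2, the inducible prostaglandin synthase, were measured, at mean log2 ratios of 0.65 and -0.34, and neither passed.

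Among all named probes, Barhl1 and Slc38a1 had the highest ratios at 3 h. Barhl1, a homeobox factor of the developing nervous system, had log2 ratios of 5.86, 4.71 and 5.87, a mean of 5.48 ± 0.67 (SD, n = 3; limma adjusted p = 0.00094). Its mean at 1 h was already 4.86 and at 18 h it was 7.49. Slc38a1, a neutral amino acid transporter, had log2 ratios of 2.88, 2.97 and 2.99, a mean of 2.95 (limma adjusted p = 0.00872). Its mean was 2.69 at 1 h and 3.70 at 18 h. For both probes every array was far above 0, the difference between 3 h and 1 h or 18 h did not pass the test, and a constant dye bias cannot be told apart from a lasting response. Without 1 of the arrays the adjusted p of Slc38a1 reached 0.0869. Map1b, which stabilises microtubules in growing axons, had log2 ratios of 1.50, 1.17 and 0.86 at its probe 31C04 (limma adjusted p of the mean = 0.000464).

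**Figure D2:**
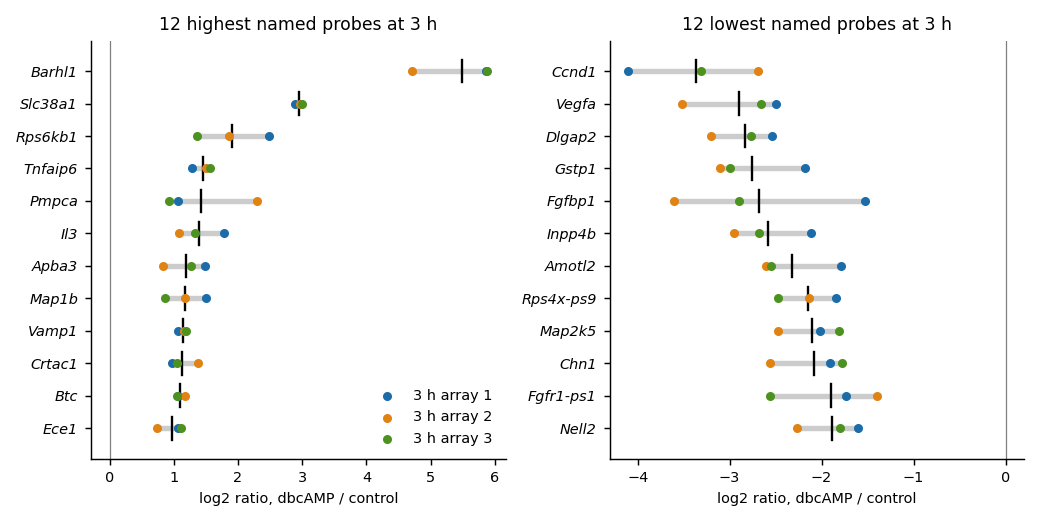
Log2 ratio of dbcAMP over control RNA (horizontal axes) for the 12 highest and 12 lowest named probes called at 3 h, with the 3 arrays as coloured points, their range as a grey bar and the mean as a black line. No array of any of these probes crosses 0, and the scales of both panels differ.

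Genes of inflammation were among those that rose. Tnfaip6, a secreted protein that binds hyaluronan and is induced by inflammatory signals, had log2 ratios of 1.28, 1.51 and 1.56. The 3 arrays were close together, with a mean of 1.45 ± 0.15 (SD, n = 3), a 2.74-fold rise (limma adjusted p = 5.02e-05). Cxcl2, a neutrophil-attracting chemokine, had log2 ratios of 1.13, 0.75 and 0.57 (limma adjusted p of the mean = 0.000787). Ackr3, a scavenging chemokine receptor, had a mean log2 ratio of 0.88 (limma adjusted p = 0.00379). Of 27 genes of chemokines and their receptors these 2 rose, which is 7.41% against 0.869% of all named genes, and 0 fell. The list as a whole did not lie above 0, with a median log2 ratio of -0.03, 13 genes above 0 and 14 below. Of 47 genes of interleukins, the TNF family, colony-stimulating factors and their receptors, Tnfaip6 and 1 probe of Il3 rose (4.26%). Csf1, a growth factor of macrophages, fell (2.13%, against 1.93% of all named genes). Csf1 had a mean log2 ratio of -0.62 (limma adjusted p = 0.0225).

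Growth factors moved in both directions. Btc, a ligand of the EGF receptor family, had log2 ratios of 1.06, 1.17 and 1.05. Its mean of 1.10 ± 0.07 (SD, n = 3), a 2.14-fold rise, had an adjusted p of 0.00344 in limma, which reached 0.0540 without 1 of the arrays. Ece1, the enzyme that makes active endothelins, rose by 0.97 on the log2 scale, while Pdgfc fell by 0.44 (limma adjusted p = 0.0117 and 0.0346). Vegfa, the main endothelial growth factor, had log2 ratios of -2.50, -3.52 and -2.66 at its probe 52C12 (limma adjusted p of the mean = 2.82e-06). At the other Vegfa probe, 25C10, they were 0.05, 0.12 and 0.13 (limma adjusted p of the mean = 1.00). Of 54 genes of the FGF, EGF, PDGF, HGF and VEGF systems these 4 were called, 2 in each direction (3.70% each). Over all named genes 0.869% rose and 1.93% fell. Ntf3, the neurotrophin of large sensory neurons, was the 1 called gene of 19 of neurotrophins, the GDNF family and their receptors (5.26%). It had log2 ratios of -1.02, -0.98 and -1.19 at probe 43G09 (limma adjusted p of the mean = 0.0302). At probe 52H09 they were -0.30, -0.55 and -0.63 (limma adjusted p of the mean = 0.472).

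Second probes did not share these calls. For 15 genes a called probe could be set beside another probe of the same gene. None of the 17 other probes passed the test in the same direction, with 9 of the same sign and 8 of the opposite sign. Ccnd1, the cyclin that drives cells out of G1, had log2 ratios of -4.10, -2.69 and -3.32 at probe 53G02 (limma adjusted p of the mean = 2.82e-06). At its other probe, 30F03, they were -0.02, -0.04 and 0.20. Rps6kb1, the kinase of ribosomal protein S6, had a mean log2 ratio of 1.90 at probe 52F12 and of 0.24 at probe 34G05, and for Map1b the values were 1.18 at 31C04 and 0.01 at 31C10. None of these second probes passed the test. Il3 had 1.40 at 52B11 and 0.27 at 26B07. Pcdhb12, a cell-surface protocadherin, was the closest match, at -1.48 and -1.16 (limma adjusted p = 0.00572 and 0.168). Both Pcdhb12 probes were of plate 43, where 15 of 96 tested probes were called lower. Which probe reports its transcript was not tested, and the other 101 called genes had 1 probe each.

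Cytoskeletal, vesicle and adhesion genes were represented on both sides. Of 49 tubulins, microtubule and actin regulators and growth cone proteins, Map1a and 1 probe each of Map1b and the kinesin Kif1b rose (6.12%, against 0.869% of all named genes). For Actn4, an actin cross-linker, 1 probe fell (2.04%, against 1.93%). The other probes of Kif1b (28E01) and Actn4 (31B02) had mean log2 ratios of 0.31 and -0.18, and neither passed. The log2 ratios of Map1a were 0.64, 0.47 and 1.02 (limma adjusted p of the mean = 0.0268). Those of Kif1b at probe 28E05 were 1.37, 0.46 and 0.96 (limma adjusted p of the mean = 0.00841). Array 2 was the lowest for both. Among 80 synaptic vesicle, SNARE and Rab genes, Syt4, a synaptotagmin of dense-core vesicles, and Vamp1, a vesicle SNARE, rose (2.5%). Stx4, a plasma membrane SNARE, fell (1.25%). Syt4 had log2 ratios of 0.56, 0.95 and 0.54 (limma adjusted p of the mean = 0.0111), and Vamp1 had 1.07, 1.15 and 1.18 (limma adjusted p of the mean = 0.042). Among 68 adhesion and guidance genes Cdh11, a cadherin, and Itgb4, the integrin beta 4 subunit, rose (2.94%). The guidance ligand Slit2, the contactin Cntn6 and 1 probe of Slit1, also a guidance ligand, fell (4.41%). The other Slit1 probe, 52D01, had a mean log2 ratio of 0.01. Slit2 had log2 ratios of -1.53, -1.56 and -1.68 (limma adjusted p of the mean = 0.00102). Its mean was -1.58 at 1 h and -1.50 at 18 h.

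Receptor and channel genes were called in both directions. Of 123 transmitter, peptide and lipid receptors coupled to G proteins 4 fell (3.25%, against 1.93% of all named genes) and 0 rose. They were the dopamine receptor Drd2, the muscarinic receptors Chrm3 and Chrm5 and the adrenergic receptor Adrb1. Chrm3 had a mean log2 ratio of -1.11 at its called probe 41C08, but of 0.24 at its other probe, 29G11, which did not pass. Drd2 had log2 ratios of -1.21, -1.28 and -1.25, a mean of -1.24 ± 0.04 (SD, n = 3; limma adjusted p = 0.00202). Its mean was -1.13 at 1 h and -1.18 at 18 h. Of 53 genes of sodium, calcium and TRP channels, the calcium channel subunits Cacna1a and Cacnb2 and 1 of 3 probes of Cacna1e fell (5.66% of the genes) and Scn11a, a sodium channel of nociceptors, rose (1.89%). Cacna1e had log2 ratios of -0.72, -1.05 and -0.82 at probe 41D01, but of 0.32, 0.47 and 0.43 at probe 21F09 (limma adjusted p of the mean = 0.0956) and a mean of -0.20 at probe 21H01. Cacna1a had log2 ratios of -0.89, -1.39 and -1.14 (limma adjusted p of the mean = 0.000164), while those of Scn11a were 0.49, 0.34 and 0.51 (limma adjusted p of the mean = 0.0215). Scn11a lost its call when 1 of the arrays was left out, with an adjusted p of up to 0.212, and Cacna1a kept its call. No gene of potassium channels (67) or ligand-gated channels (58) passed.

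Signalling enzymes and growth regulators were also among the genes that fell. The MAP kinase kinases Map2k5 and Map2k1 had mean log2 ratios of -2.10 and -1.57 (limma adjusted p = 0.00089 and 0.00872). Of 21 genes of MAP kinases and their phosphatases these 2 fell (9.52%, against 1.93% of all named genes). Both probes were of plate 36, where 17 of 95 tested probes were called lower. Dusp1 of the same list rose (4.76%, against 0.869%). Of 39 enzymes, anchors and effectors of cAMP signalling 0 rose. Akap1, an anchor of protein kinase A, and 1 probe of the adenylyl cyclase Adcy2 fell (5.13%). Akap1 had log2 ratios of -0.72, -0.54 and -0.68 (limma adjusted p of the mean = 0.0084). Irs1, an adaptor of insulin and IGF receptors, had log2 ratios of -1.11, -1.52 and -1.64 (limma adjusted p of the mean = 0.000578). It was the 1 called gene of 17 in the IGF system (5.88%). E2f1, a factor that switches on S-phase genes, had log2 ratios of -0.93, -1.72 and -1.60 (limma adjusted p of the mean = 0.000375). It joined 1 probe of Ccnd1 among 43 cell cycle genes (4.65%). Ptges, which makes prostaglandin E2, had log2 ratios of -1.85, -1.82 and -1.71 (limma adjusted p of the mean = 0.000402). It was the 1 call among 27 prostaglandin and eicosanoid genes (3.70%).

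The position of a probe on its source plate moved with the lower calls. Probe names carry 1 of 53 plate numbers. Plates 36, 41 and 43, picked out after their values were seen, held 287 of the 5050 tested probes, 52 of the 98 lower probes and 0 of the 47 higher ones. Their probes had a median log2 ratio of -0.19, and their plate medians ran from -0.25 to -0.14. Of the 12 lowest named probes, 9 came from these plates, 6 of them from plate 36. The called probes of Map2k5, Map2k1, Irs1 and Ppargc1a were all of plate 36, and those of Drd2, Chrm3, Chrm5 and Cacna1a of plate 41. Those of Slit1, Slit2, Cntn6, Neurog3, Olig1 and Pcdhb12 were all of plate 43, as was the second Pcdhb12 probe. After each array was centred on the median of each plate, 124 probes were called, of which 112 were among the 145, 40 higher and 72 lower. All 12 of the lowest named probes stayed called after this centring. The genes described here that did not were Chrm3, Chrm5, Adrb1, Slit1, Olig1, Ntf3, Akap1, Actn4, Pdgfc, Csf1, Adcy2, S100a9, Sik1, Vamp1 and Rarb. Plate 52 was not grouped with plates 36, 41 and 43, but its median log2 ratio was -0.16, with 3 higher and 5 lower calls. It held the called lower probes of Vegfa, Adcy2, Csf1 and Pdgfc. The cause of the plate differences was not tested.

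**Figure D3:**
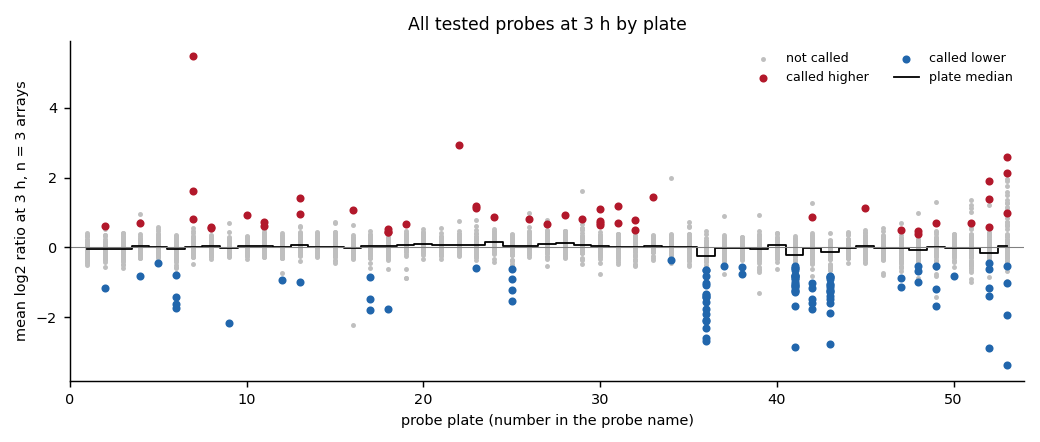
Mean log2 ratio at 3 h (vertical axis, 3 arrays) of every tested probe against the plate number in its name (horizontal axis), with called higher probes in red, called lower probes in blue, other probes in grey and the plate medians as a black line. Plates 36, 41 and 43 hold 52 of the 98 lower probes and 0 of the higher ones.

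Over all named genes 0.869% rose and 1.93% fell, so a list of few genes can lack a call without differing from the rest. Of 43 gene lists, 17 had no called gene at 3 h. They included 46 regeneration-associated genes of nerve injury, whose median log2 ratio was 0.06, 18 gp130 cytokines and receptors (0.09), 36 genes of glycolysis (0.05), 38 neuropeptide genes (-0.04) and 78 genes of extracellular matrix and its proteases (0.00). Also without a call were the markers of sensory neurons (14 genes), of satellite glia and Schwann cells (13), of endothelium (7), of macrophages (7) and of fibroblasts (9). Their median log2 ratios were 0.02, 0.04, 0.03, -0.01 and -0.08 in that order. Of the 9 fibroblast markers 8 were below 0, against 1869 of all 4141 named genes tested. The genes that the study discusses for this treatment and that are described here did not pass at 3 h. Crem, which it also discusses, was not among the CREB target genes tested, and no value is given for it here. The study itself compared treated and untreated cells at a later time. Il6, the gp130 cytokine, had log2 ratios of 1.19, 0.64 and 1.09 (limma adjusted p of the mean = 0.522), all above 0. The test used a spread shared by all times, and for Il6 this took in array 1 of 18 h, at -0.50 against 3.25 and 2.83. The missing call therefore does not show that Il6 was unchanged at 3 h. Slpi, a secreted protease inhibitor, had 0.64, 0.11 and 0.36 (limma adjusted p of the mean = 0.661). Arg1, the arginase of the urea cycle, had 0.13, 0.00 and 0.06. The 3 probes of Mt1, a metallothionein, had mean log2 ratios of 0.23, 0.23 and 0.04. Atf3, a factor induced by nerve injury, had -0.07, 0.08 and -0.33, and the growth cone protein Gap43 had a mean of -0.07.

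Comparison with the neighbouring times asked when the changes appear. Between 1 h and 3 h, 0 of 5036 probes passed (0% called, limma, adjusted p under 0.05), with 64 at an unadjusted p under 0.05. Those 64 are fewer than this cutoff would give if nothing differed, so the test was strict and can miss differences. With the arrays of 1 h and 3 h alone, 259 probes had an unadjusted p under 0.05 in limma and 0 passed. By the ordinary test without a shared spread 0 passed after adjustment. The Vegfa probe 52C12 was among the nearest, with a difference of -1.65 on the log2 scale, lower at 3 h (limma adjusted p = 0.2). Between 3 h and 6 h, 2 of 5031 probes passed (0.0398% called), 1 of them without a symbol. The other, Rps4x-ps9, has the name of a ribosomal pseudogene and may share signal with near-identical copies. It had log2 ratios of -1.85, -2.13 and -2.47 at 3 h, and was 1.70 higher on the log2 scale at 6 h. Of the 145 probes called at 3 h, 142 had the same sign at 1 h and 85 were called there in the same direction. At all 5 times 48 were called in the same direction, 11 higher and 37 lower. For such probes a constant dye bias cannot be told apart from a lasting response. Another 18 passed at 3 h and at no other time, 7 of them higher. None of these 18 differed from 1 h by the test of the difference. The named ones among them that rose were Btc, Klf4 and Pmpca, a subunit of the mitochondrial processing peptidase.

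By 18 h, 162 of 4991 probes differed from 3 h (3.25% called), with 72 higher (1.44% called) and 90 lower (1.8% called) at 18 h. The 18 h arrays were wider, with an SD of log2 ratios of 0.645 to 0.703 against 0.372 to 0.400 on the 3 h arrays. With all arrays scaled to a common spread the split was 30 higher and 21 lower, and 31 of the 162 stayed called. Of the 145 probes called at 3 h, 23 were among the 162. Rgs2 and Klf4 had fallen back, with differences of -0.69 and -0.98 (limma adjusted p = 0.0225 and 0.0263), and their log2 means at 18 h were 0.12 and -0.29. Syt4 and Btc likewise had means of -0.11 and -0.25 at 18 h, with differences of -0.80 and -1.35 (limma adjusted p = 0.0386 and 0.0158). Tnfaip6, Cxcl2 and Phlda1, a pleckstrin-homology protein, were higher still at 18 h than at 3 h. Their log2 means went from 1.45 to 3.14, from 0.82 to 1.47 and from 0.88 to 1.70. Ptges returned from -1.79 to -0.18. A change between 3 h and 18 h cannot come from a dye bias that is constant over arrays. Slpi, Arg1 and 1 of 2 Vgf probes, with means of 0.37, 0.06 and 0.12 at 3 h, were higher at 18 h by 2.12, 1.06 and 0.90 on the log2 scale (limma adjusted p = 0.00257, 0.0318 and 0.0293). Of the genes named in this comparison, Tnfaip6 and Slpi stayed called whichever array of 3 h or 18 h was left out, and Rgs2, Klf4, Syt4, Btc, Cxcl2, Phlda1, Ptges, Arg1 and Vgf did not. For Il6 the difference of 0.88 did not pass (limma adjusted p = 0.562), but array 1 of 18 h decided this value. The log2 ratios of Il6 at 18 h were -0.50, 3.25 and 2.83. Without array 1 of 18 h the difference was 2.06 (limma adjusted p = 0.000277), and without any other array of 3 h or 18 h it was 0.19 to 0.99 and did not pass. The fits without 1 array of 18 h were added after the data were seen.

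**Figure D4:**
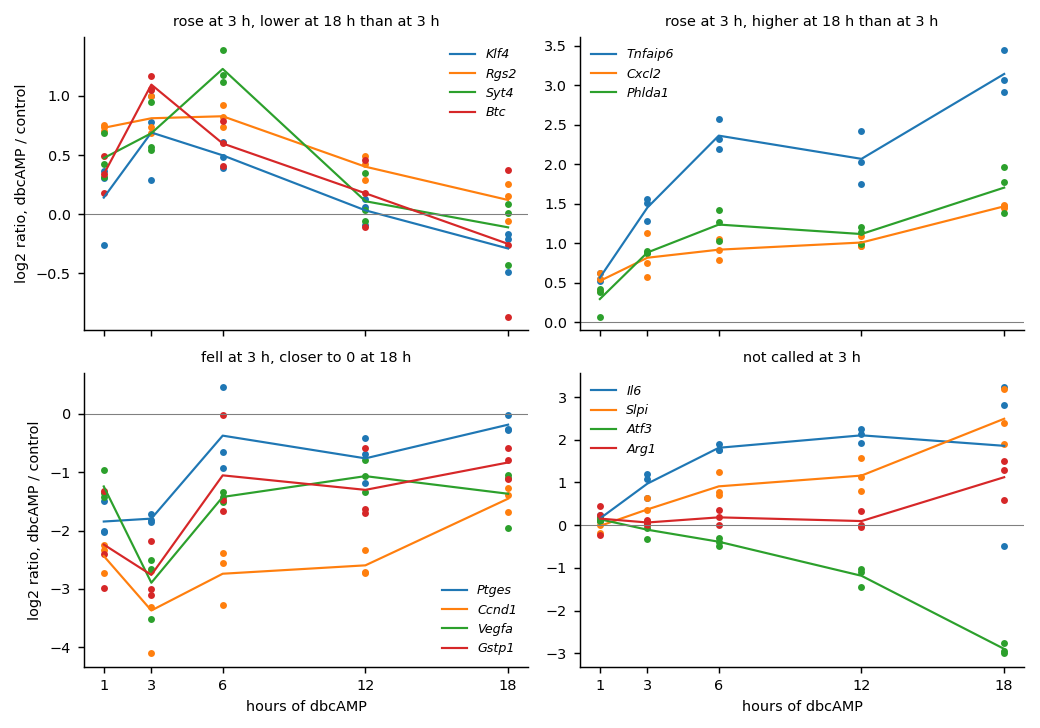
Log2 ratio of dbcAMP over control RNA (vertical axes) against hours of dbcAMP (horizontal axes) for 15 probes in 4 panels, with points for single arrays and lines through the means of each time. Btc and Klf4 are highest at 3 h among the 5 times, Tnfaip6 goes from a mean of 1.45 at 3 h to 3.14 at 18 h, and Il6, Slpi, Atf3 and Arg1 were not called at 3 h.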

How the data were processed

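Spotted-oligonucleotide 2-colour arrays measured RNA of dbcAMP-treated and control cultures of rat DRG. The table the authors deposited holds a ratio on a linear scale, treated over control, for 5088 probes on 15 arrays, with 28 to 105 probes of an array lacking one. How they corrected background and normalized is not given in the sources used here, and the scanner intensities were not analysed here. The log2 of each ratio was taken without centring. Gene symbols came from the annotation of the platform, where 4423 had 1 symbol, 2 had several and 663 had none. The 3 h mean was tested against 0, two-sided, with limma 3.58.1 (lmFit and eBayes, 1 mean per time, all 15 arrays sharing the spread) in R 4.3.3, for 5050 probes with a ratio on at least 2 of 3 arrays. A probe called had a Benjamini-Hochberg adjusted p under 0.05 over all probes tested. Differences of 3 h from 1, 6 and 18 h came from the same fit. Of the tested probes, 27 had 2 ratios at 3 h.

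The genes named are the 12 highest and 12 lowest probes with 1 symbol called with the same sign on every array, the genes the study names for this treatment, the extremes of each difference between times, called members of 43 gene lists (or the 2 with the smallest p), and the CREB target list. Not all of them are described. The members, lists and rules were chosen with earlier results of these data known, so list counts and medians are given without tests. Genes with several probes were averaged for list medians. The fit was tested on simulated data. Alternatives covered centring, spread, plates, arrays in the fit, priors, array weights, thresholds, filters, a replicate block, the methods' t-test and each 3 h array left out. Robust fits used statmod 1.5.0, and plots used matplotlib 3.10.9.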

Additional observations from a re-analysis of the deposited data

Results flagged for a closer look

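A few differences between 3 h and another time passed the limma test with the largest sizes. Between 3 h and 6 h the probe of Rps4x-ps9 was higher at 6 h by 1.70 on the log2 scale (limma adjusted p = 0.0292). Between 3 h and 18 h the log2 ratio was higher at 18 h for Slpi by 2.12, for Gstp1, a glutathione transferase, by 1.93, for Ccnd1 (probe 53G02) by 1.92 and for Tnfaip6 by 1.69. In the same comparison it was lower at 18 h for Atf3, with a difference of -2.79, for Defa5, a defensin of leukocytes and gut, with -2.40, for Ankrd1, a stress-induced muscle protein, with -2.11, and for Hes1, a Notch target, with -2.03. Gstp1 was close to the threshold (limma adjusted p = 0.0496).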

How the results depend on the processing

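The count of 145 probes at 3 h rose to 435 with all arrays scaled to a common spread, 353 with the 3 h arrays alone, 347 without the arrays of wide spread and 566 with array weights. It fell to 79 at a threshold of 0.01, to 48 with a trended prior and to 0 by the methods' t-test after adjustment (758 at an unadjusted p under 0.05). The trend of that prior ran over the mean absolute log2 ratio of each probe, which includes any effect, and not over intensity. Leaving out 1 array of 3 h gave 53 to 79. The difference between 3 h and 1 h, 0 probes, became 4 with scaling, 3 with array weights and 0 to 1 without 1 array. The difference between 6 h and 3 h, 2 probes, became 4 with scaling or without wide arrays, 9 with weights, 1 at 0.01, 0 with the compared arrays alone, the t-test or the trended prior, and 1 to 3 without 1 array. The difference between 18 h and 3 h, 162 probes, became 51 with scaling, 93 with plate centring, 69 with the compared arrays alone, 9 by the t-test, 20 with the trended prior, 31 at 0.01, 34 to 43 without 1 array of 3 h and 85 to 146 without 1 array of 18 h, an alternative chosen after seeing the data. The fit without wide arrays gave no value there, since all 18 h arrays were left out. The cause was not tested for any of these. None of the 177 named probes followed, 70 of them called, changed direction while called. Arrays of the same number did not deviate together (correlations of -0.052 to 0.069 over 30 pairs), so the numbers were not taken as pairs. A replicate block gave 147 probes at 3 h, 0, 2 and 133 for the 3 differences. The number of arrays, 3 per time, limits the precision.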

Other observations

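The called probes also included 29 without a single gene symbol in the annotation used here, 11 higher and 18 lower. Of these, probe 53E09 had log2 ratios of 1.40, 2.39 and 3.98 at 3 h, and probe 53H09 had 2.17, 1.03 and 3.18. Probe 7E10 had 1.78, 1.57 and 1.50, and at 18 h its mean was 1.41 lower on the log2 scale, a difference of -1.41 that passed the limma test.

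Some called genes belonged to no list described above. Phlda1 had log2 ratios of 0.88, 0.90 and 0.88. Rarb, a retinoic acid receptor, had a mean of 0.82 and Gsk3b, a kinase of the Wnt and insulin pathways, had a mean of 0.71 (limma adjusted p = 0.0304 and 0.0084). Among lower probes, the complement genes C5 and C4b had means of -1.53 and -0.63 (limma adjusted p = 7.33e-05 and 0.0215), and the antiviral gene Rsad2 had a mean of -1.48 (limma adjusted p = 0.000697). The neurogenic factor Neurog3 had a mean of -1.28 and the glial factor Olig1 had a mean of -0.85 (limma adjusted p = 0.00089 and 0.049). S100a9, a calcium-binding protein of neutrophils, had log2 ratios of -0.46, -0.23 and -0.43 (limma adjusted p of the mean = 0.049), and at 18 h its mean was -1.95.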
